A study of Mus musculus with 6 samples.

Results

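The genes described are those that the deposited count table labels as basic helix-loop-helix (bHLH) transcription factors, without 14 set aside by name (*Neurod1*, *Mlxipl*, *Mlxip*, *Mlx*, *Clock*, *Arntl*, *Npas4*, *Myc*, *Mycn*, *Mycl*, *Srebf1*, *Srebf2*, *Tfeb* and *Tfe3*). Of 107 genes with this label among 56747 in the table, 93 remained, and the 38 with at least 10 counts in 3 or more libraries were tested. The counts are Ribo-seq footprints, the mRNA fragments that ribosomes shield from RNase I, from pancreatic islets of male C57BL/6J mice aged 6 to 8 weeks. The 3 low glucose libraries come from islets after 2 h at 2.5 mM glucose and the 3 high glucose libraries from islets after 2 h at 25 mM, and islets of each mouse were shared between the conditions. In both conditions the islets had first been held without glucose, and cycloheximide at 100 μg/mL was present for the last 15 min. A library was made from about 500 to 600 islets pooled over several mice, so no value belongs to 1 animal.

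A bHLH protein carries a basic stretch that touches DNA and a helix-loop-helix through which it pairs with another bHLH protein, and most pairs bind an E-box, the letters CANNTG. The pairing sets what a factor does. E proteins (*Tcf3*, *Tcf4*, *Tcf12*) are the broadly present partners of tissue factors such as NEUROD1, which with an E protein binds the insulin gene promoter. ID proteins lack the basic stretch and hold E proteins off DNA, HES and HEY proteins repress genes downstream of Notch, ARNT is the shared partner of the hypoxia-inducible factors and of the dioxin receptor AHR, and MAX pairs with MYC or with the repressors MXD and MNT.

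To show the DNA in front of the members that moved within a family, promoters are given for *Id2* and *Id3*, which went opposite ways, and for *Arnt* and *Arnt2*, which went the same way. Each runs from 250 bases before to 50 bases after the start of the gene (RefSeq, GRCm38.p6), 5′ to 3′ on the strand of the gene, with every CANNTG in capitals. The positions are chr12:25096043-25096342 (- strand), chr4:136143572-136143871 (+ strand), chr3:95434140-95434439 (+ strand) and chr7:84409989-84410288 (- strand).
Id2: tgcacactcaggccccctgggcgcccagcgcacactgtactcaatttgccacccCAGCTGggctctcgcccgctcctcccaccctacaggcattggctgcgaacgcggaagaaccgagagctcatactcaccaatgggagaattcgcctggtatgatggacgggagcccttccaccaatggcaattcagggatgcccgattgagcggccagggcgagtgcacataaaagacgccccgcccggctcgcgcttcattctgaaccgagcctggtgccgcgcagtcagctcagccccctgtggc
Id3: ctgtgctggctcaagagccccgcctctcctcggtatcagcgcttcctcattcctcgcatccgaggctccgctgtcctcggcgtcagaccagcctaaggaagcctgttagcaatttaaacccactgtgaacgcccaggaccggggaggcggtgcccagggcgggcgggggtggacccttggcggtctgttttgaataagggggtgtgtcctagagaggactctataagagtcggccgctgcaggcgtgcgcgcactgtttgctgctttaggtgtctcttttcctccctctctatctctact
Arnt: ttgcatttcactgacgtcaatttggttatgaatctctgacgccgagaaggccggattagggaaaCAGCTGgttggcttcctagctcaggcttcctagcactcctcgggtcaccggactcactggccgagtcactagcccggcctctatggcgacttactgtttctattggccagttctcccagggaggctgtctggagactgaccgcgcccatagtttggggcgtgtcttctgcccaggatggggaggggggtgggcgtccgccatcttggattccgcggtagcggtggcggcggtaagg
Arnt2: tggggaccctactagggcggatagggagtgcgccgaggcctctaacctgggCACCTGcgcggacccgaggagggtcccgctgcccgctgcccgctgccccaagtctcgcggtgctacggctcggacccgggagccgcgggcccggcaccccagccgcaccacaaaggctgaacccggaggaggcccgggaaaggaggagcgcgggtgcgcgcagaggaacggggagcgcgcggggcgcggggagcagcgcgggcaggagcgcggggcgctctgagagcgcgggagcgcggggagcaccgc
*Id2*, *Arnt* and *Arnt2* each held 1 CANNTG and *Id3* held 0 in this window. RefSeq promoters were matched for 27 of the 38 genes tested. At least 1 promoter held CANNTG for 21 of the 27 (77.8%), against 75% of all 27025 genes with a promoter. The E-box CACGTG, which MAX and USF pairs bind and which is itself a CANNTG, was present for 5 of the 27 (18.5%), namely *Atoh8*, *Bhlhe41*, *Max*, *Mnt* and *Mxd4*, against 8.09% of all genes. None of these 5 passed the test of glucose given next. The shorter ACGTG, the core that hypoxia-inducible factors bind and a part of CACGTG, was present for 10 of the 27 (37.0%), against 21.8% of all genes. The remaining motifs searched were TGACGTC, which holds most of the CREB site (*Arnt* and *Mitf*, 2 of 27, 7.41%, against 3.60% of all genes), and the N-box CACNAG of HES proteins (13 of 27, 48.1%, against 46.1%). All motifs were searched on both strands, and a match is a description of the letters. The 27 had passed a count minimum, while the genes set beside them include genes that were not tested. G and C made up 59.3% to 76.7% of the promoters printed here, against a median of 52.7% over all promoters. The shares were not matched for this.

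Library totals ran from 9242549 to 12175699 counts in low and from 16322162 to 20692579 counts in high glucose, and Spearman's rho across genes between libraries of a condition ran from 0.968 to 0.981. Levels are given as CPM, counts per 1000000 of the TMM-scaled library size. A change is a log2 fold change (log2FC), positive where high glucose had more. The adjusted p is that of edgeR's quasi-likelihood test with Benjamini-Hochberg adjustment over all 13159 genes tested. Higher and lower are used at an adjusted p under 0.05, which 12.0% and 10.1% of all genes tested met. The tissue label was borne out by 10 beta cell markers, *Ins2* among them, which summed to 132054 to 148024 CPM at low and 161187 to 176462 CPM at high glucose (7 of 10 higher and 2 lower). Sums were lower in high glucose for 6 alpha cell markers (58497 to 62325 against 46875 to 50409 CPM, 4 of 6 lower) and 4 delta cell markers (6478 to 7094 against 4991 to 5071 CPM, 2 of 4 lower). For 7 duct markers the sum was higher (1552 to 1592 against 1804 to 1922 CPM, 2 of 6 tested higher). The 6 duct markers tested had a median log2FC of 0.04 and a lowest one of -1.10, with 0 called lower. Footprints of other cell types were present as well. Footprints of 13 acinar markers tested were lower for 12 and higher for 0, and their summed level over 15 markers was 743 to 822 CPM at low against 319 to 341 CPM at high glucose. Sums were also lower for 12 endothelial markers (295 to 313 against 222 to 242 CPM, with 3 of 12 tested lower), 10 stellate and mesenchymal markers (149 to 163 against 102 to 118 CPM, 3 of 10 lower) and 10 macrophage and other leukocyte markers (257 to 281 against 172 to 176 CPM, 2 of 9 lower, with *Itgam* at 0). The 8 Schwann and neuronal markers summed to 38.8 to 43.4 against 29.7 to 35.9 CPM, with 0 of 3 tested called. In footprint counts of such bulk libraries, a change in cells of a type, in RNA per cell and in ribosomes per mRNA cannot be told apart. The same holds for each gene described below.

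Among the 38 genes tested, 5 were higher in high glucose (*Arnt*, *Arnt2*, *Ahr*, *Id2* and *Mitf*), 4 were lower (*Id3*, *Hes1*, *Hey1* and *Tfap4*) and 29 did not pass. The share called, 23.7%, lay near the 22.1% called among all genes tested. By direction, 12.0% of all genes were higher and 10.1% were lower. The median log2FC of the 38 was 0.12, against -0.01 for all genes tested, with 21 values above 0 and 17 below. In 13 members (34.2%) the conditions did not overlap, against 37.3% of all genes tested. High glucose lay above in 8 of them (19.5% of all genes) and below in 5 (17.8% of all genes). Scaled by upper-quartile factors or by library totals only, 2 members were higher and 4 lower. With the replicate block, which takes same-numbered libraries as pairs, 2 were higher in edgeR (*Arnt* and *Id2*) and 1 in DESeq2 (*Arnt*). The count of higher members fell to between 0 and 2 when low-glucose replicate 2 (1 member) or 3 (2 members) or high-glucose replicate 1 (2), 2 (1) or 3 (0) was left out. At the 0, 3 members were still higher at an unadjusted p under 0.05, and DESeq2 on all 6 libraries called 4 higher. The count of lower members fell to 2 without low-glucose replicate 3.

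**Figure D1:**
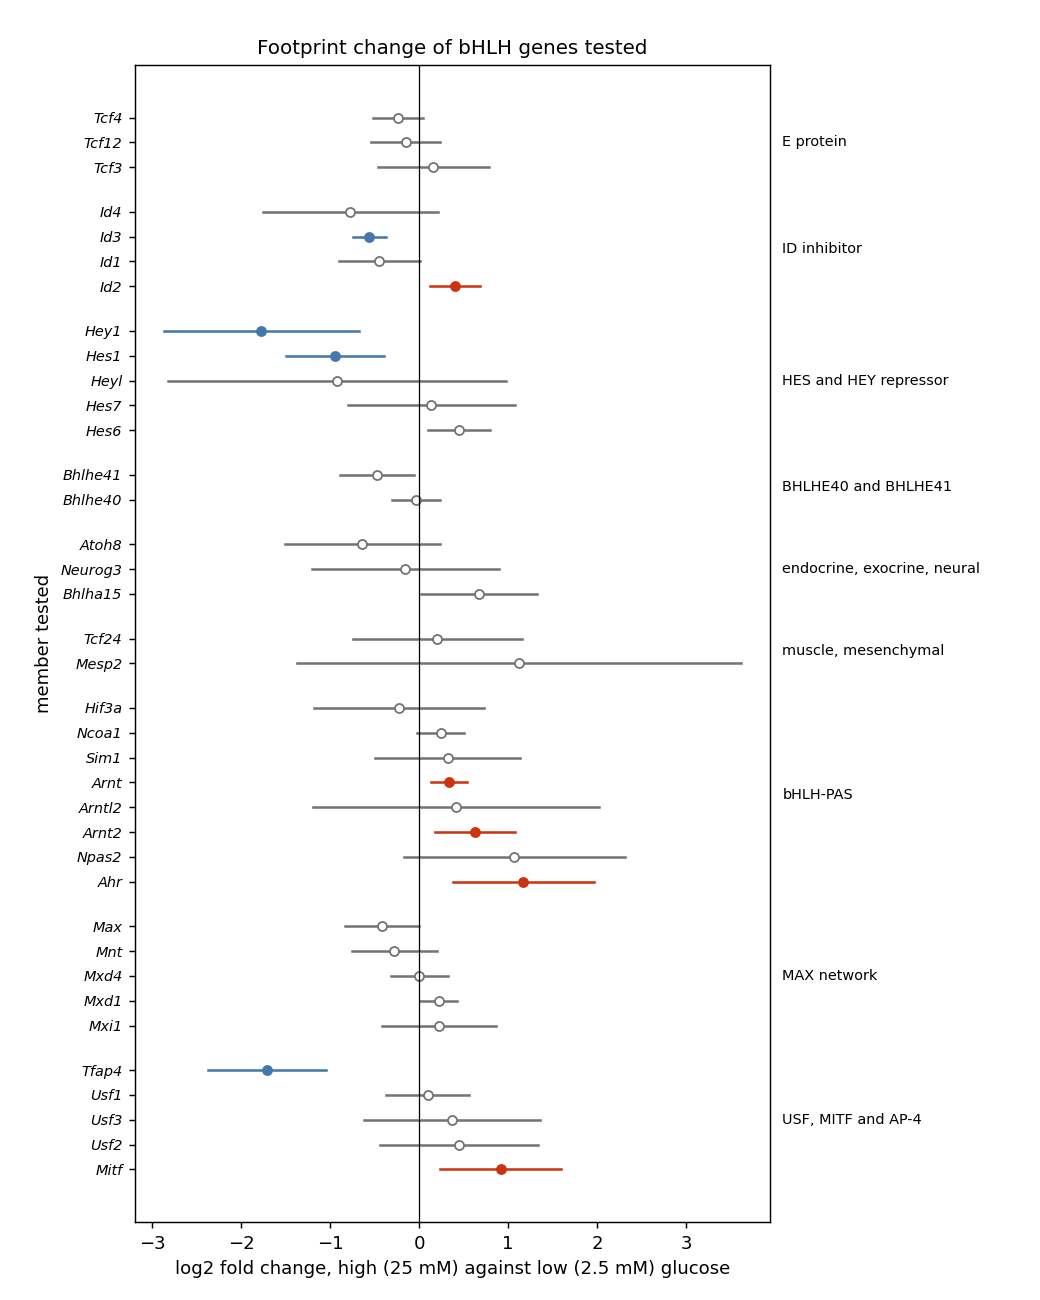
Log2 fold change of footprints in high against low glucose for 37 of the 38 genes tested (points, x axis), grouped by role, with 95% intervals from the edgeR fit; red marks the 5 higher genes, blue the 4 lower ones and open grey points 28 that did not pass. *Hey1* and *Tfap4* lie farthest to the left among called genes and *Ahr* farthest to the right.

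Of the 8 genes tested in the class of ARNT and its partners (bHLH-PAS factors and coactivators), 3 were higher and 0 lower, where 12.0% of all genes tested were higher. DESeq2 also called 0 lower, and 0 were lower at an unadjusted p under 0.05. *Arnt* (ENSMUSG00000015522, chromosome 3), the shared partner of HIF and AHR proteins, had 65.6, 62.6 and 69.2 CPM at low against 80.8, 83.3 and 85.0 CPM at high glucose. All 3 high-glucose libraries lay above all 3 low-glucose ones, with little spread within a condition (log2FC = 0.33, SE 0.097, edgeR adjusted p = 0.0148). *Arnt2* (ENSMUSG00000015709, chromosome 7), its paralog typical of neurons, had 14.1, 12.4 and 9.59 CPM at low against 16.3, 16.7 and 22.7 CPM at high glucose. The conditions did not overlap here either, and high-glucose replicate 3 was the highest (log2FC = 0.63, SE 0.22, edgeR adjusted p = 0.0409). *Ahr* (ENSMUSG00000019256, chromosome 12), the ligand-activated dioxin receptor, had 3.08, 3.26 and 3.33 CPM at low against 10.9, 4.01 and 6.87 CPM at high glucose. Its low-glucose libraries were close together and its high-glucose ones were widely spread, with no overlap (log2FC = 1.17, SE 0.38, edgeR adjusted p = 0.0305).

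These calls were near the threshold. That of *Arnt* was lost without low replicate 2 and without high replicate 2 or 3, each in turn (adjusted p 0.0518 to 0.0627), and its rise of 1.26-fold did not reach the 1.5-fold threshold of the study's methods. That of *Ahr* was lost without low replicate 2 or 3 and without high replicate 1 or 3, each in turn, and with the replicate block (adjusted p 0.0595 to 0.284), and that of *Arnt2* without low replicate 2 or 3 and without high replicate 2 or 3, each in turn, with the replicate block and with upper-quartile or library-total scaling (adjusted p 0.0563 to 0.232). The *Arnt* to *Arnt2* ratio of counts was 4.65, 5.03 and 7.22 in low and 4.95, 4.98 and 3.75 in high glucose. These ratios overlapped between conditions.

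Other genes of this class were spread more widely. The steroid receptor coactivator *Ncoa1* had 52.0, 58.8 and 40.6 CPM at low against 62.1, 60.5 and 56.3 CPM at high glucose, with overlap (log2FC = 0.24, 95% interval -0.02 to 0.51, edgeR adjusted p = 0.194). *Npas2*, a paralog of the clock activator CLOCK, had a log2FC of 1.07 with an interval from -0.17 to 2.32, and it passed the count minimum in 2 of 3 low-glucose libraries. *Sim1*, a factor of hypothalamic development, ranged from 2.86 to 8.21 CPM in low and from 4.0 to 7.82 CPM in high glucose. *Hif3a*, the third HIF alpha subunit, and *Arntl2*, a paralog of the clock factor ARNTL, did not pass either (log2FC = -0.23 and 0.42, edgeR adjusted p = 0.790 and 0.769). *Arntl2* had 1 count in low-glucose replicate 2 and 25 to 61 in the other 5 libraries. Summed over all 12 genes of the class, footprints were 141 to 147 CPM in low and 184 CPM in each high-glucose library. *Arnt* alone took 45.7% of this sum in low glucose, and *Ncoa1*, which was not called, had a mean of 50.5 CPM there. *Hif1a* and *Epas1*, which encode the main HIF alpha subunits, carry no family label in the table and are not among the 93. *Hif1a* had 39.6 ± 1.09 CPM at low against 45.1 ± 3.93 CPM at high glucose (SD, n = 3 each; log2FC = 0.19, edgeR adjusted p = 0.324), and *Epas1* 10.3 ± 2.43 and 9.49 ± 0.718 CPM (SD, n = 3 each; log2FC = -0.12, edgeR adjusted p = 0.804). The coactivator paralogs outside the label, *Ncoa2* and *Ncoa3*, went apart (log2FC = 0.48 and -0.40, edgeR adjusted p = 0.0149 and 0.00342).

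Genes that act with ARNT were counted in 3 lists. Among all genes tested, 12.0% were higher and 10.1% lower. Of 14 regulators of HIF proteins tested, 5 were higher, 2 lower and 7 not called, with a median log2FC of 0.22. The rises with the smallest adjusted p were *Cited2*, which competes with HIF alpha for the coactivator p300 (log2FC = 0.85, edgeR adjusted p = 9.80e-06), *Cul2*, the cullin of the VHL ligase (log2FC = 0.52, adjusted p = 0.00529), and the p300-binding *Cited4* (log2FC = 1.19, adjusted p = 0.0233). *Eloc* and *Rbx1*, which sit in the same ligase as CUL2, were lower (log2FC = -0.72 and -1.03, edgeR adjusted p = 2.01e-04 and 0.00218). Members of that ligase went in both directions. Of the 14, 4 were called without replicate 2 of low glucose. Of 26 HIF target genes tested, 6 were higher, 5 lower and 15 not called (median log2FC 0.04). Higher were *P4ha1*, a prolyl hydroxylase of collagen (log2FC = 0.49, edgeR adjusted p = 9.47e-07), and the glycolytic enzymes *Aldoa* (log2FC = 0.42, adjusted p = 9.04e-05) and *Eno1* (log2FC = 0.51, adjusted p = 7.86e-04). Among the lower genes were the angiogenic growth factor *Vegfa* (log2FC = -0.29, edgeR adjusted p = 7.38e-04) and the carbonic anhydrase *Car12* (log2FC = -2.60, adjusted p = 0.00107). Of 8 genes of the AHR pathway tested, edgeR and DESeq2 called 0, and 1 had an unadjusted p under 0.05 with either. The AHR target *Nqo1* came nearest (log2FC = -0.55, edgeR adjusted p = 0.0678). Scaled by library totals, or without low-glucose replicate 1 or 3, 1 of the 8 was called.

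Of the 4 ID genes, *Id3* fell, *Id2* rose, and *Id1* and *Id4* did not pass. Of all genes tested, 12.0% were higher and 10.1% lower. *Id3* (ENSMUSG00000007872, chromosome 4) had 146, 176 and 153 CPM at low against 99.6, 114 and 108 CPM at high glucose. Every high-glucose library was below every low-glucose one (log2FC = -0.56, SE 0.088, edgeR adjusted p = 5.72e-05). The call held in all 17 refits with another tool, scaling, filter, block or left-out library, but the fall of 1.47-fold was under the 1.5-fold threshold of the study's methods. *Id2* (ENSMUSG00000020644, chromosome 12) had 28.2, 28.9 and 31.4 CPM at low against 40.2, 39.8 and 37.3 CPM at high glucose. The conditions were apart by more than the spread within either (log2FC = 0.41, SE 0.14, edgeR adjusted p = 0.0356). That call was lost in 8 of the 17 refits (adjusted p 0.0588 to 0.114), namely without any of 5 libraries (all but low-glucose replicate 3), with upper-quartile or library-total scaling and with the replicate block in DESeq2. The rise of 1.32-fold was under the 1.5-fold threshold as well. *Id1* had 23.7, 13.9 and 24.1 CPM at low against 18.1, 12.5 and 14.5 CPM at high glucose, and low-glucose replicate 2 lay among the high-glucose values (log2FC = -0.45, edgeR adjusted p = 0.163; adjusted p = 0.0321 without that library). *Id4* was sparse, at 3.58 to 6.18 CPM at low against 1.24 to 4.37 CPM at high glucose (log2FC = -0.77, edgeR adjusted p = 0.277).

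A ratio of counts within a library is free of scaling between libraries. The *Id2* to *Id3* ratio was 0.193, 0.164 and 0.206 in low and 0.404, 0.348 and 0.344 in high glucose, 1.95 times as high in the mean. Both genes were already apart between conditions, in opposite directions, so this ratio had to separate them and adds no support. *Id3* took 74.3% of ID footprints in low and 65.4% in high glucose. The E proteins, which ID proteins bind, did not pass the test (0 of 3 with edgeR or DESeq2, and 0 at an unadjusted p under 0.05). *Tcf4* had 45.8, 48.3 and 43.0 CPM at low against 35.7, 34.4 and 46.0 CPM at high glucose, where high-glucose replicate 3 alone reached the low-glucose values (log2FC = -0.24, 95% interval -0.52 to 0.04, edgeR adjusted p = 0.235). *Tcf12* had a log2FC of -0.15 (95% interval -0.54 to 0.23) and *Tcf3* one of 0.16 (-0.47 to 0.79). Counts of the 4 ID genes over those of the 3 E proteins were 2.87, 2.85 and 2.99 in low and 2.64, 2.95 and 2.13 in high glucose, with overlap. Among 17 tested genes of BMP signalling, which induces ID genes, 0 were higher and 1 was lower, against 12.0% and 10.1% of all genes tested. Their median log2FC was -0.29 (DESeq2 also called 0 higher, and with edgeR 0 were higher at an unadjusted p under 0.05). At an unadjusted p under 0.05, 4 of the 17 were lower with edgeR and 5 with DESeq2. The gene called lower was *Smad4*, the shared SMAD of the pathway (79.3 ± 3.64 to 53.3 ± 4.39 CPM, SD, n = 3 each; log2FC = -0.57, edgeR adjusted p = 2.92e-04). The count of this list was 2 without low replicate 1 and without high replicate 3, each in turn, and 3 without low-glucose replicate 2. The acinar, endothelial, stellate, leukocyte, Schwann, alpha and delta marker sums given above were lower in high glucose, as was *Id3*. The part of any of these cell types in the fall of *Id3* was not tested.

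**Figure D2:**
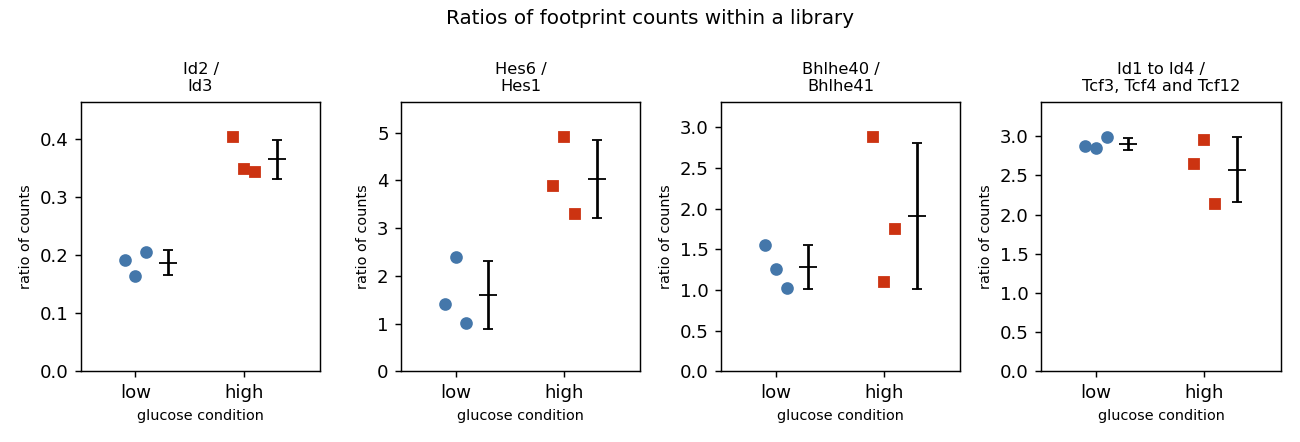
Ratios of footprint counts within each library (y axis) in low (blue circles) and high glucose (red squares), with mean and SD in black, n = 3 each. *Id2* over *Id3* and *Hes6* over *Hes1* do not overlap between conditions, while *Bhlhe40* over *Bhlhe41* and the ID genes over the E proteins do. For *Id2* over *Id3* and *Hes6* over *Hes1* this is fixed in advance, since the genes of each pair lie apart in opposite directions.

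Among repressors of the HES and HEY kind, 2 of 5 tested were lower, where 10.1% of all genes tested were lower. None passed as higher (DESeq2 also 0, and *Hes6* was the 1 higher at an unadjusted p under 0.05). *Hes1* (ENSMUSG00000022528, chromosome 16), the Notch-induced repressor that holds back endocrine differentiation in the developing pancreas, had 14.3, 10.6 and 18.3 CPM at low against 6.95, 5.81 and 9.63 CPM at high glucose. The lowest low-glucose library stood just above the highest high-glucose one (log2FC = -0.95, SE 0.27, edgeR adjusted p = 0.0123). The call was lost without low replicate 3 and without high replicate 2, each in turn (adjusted p 0.0699 to 0.0913). *Hey1* (ENSMUSG00000040289, chromosome 3), a Notch target known from blood vessels, had 4.03, 4.46 and 4.47 CPM at low against 0.869, 1.26 and 1.63 CPM at high glucose. These rest on 38, 52 and 55 counts in low and 14, 21 and 33 in the deeper high-glucose libraries (log2FC = -1.77, SE 0.53, edgeR adjusted p = 0.0175). It was lost without low replicate 3 and without high replicate 1, each in turn (adjusted p 0.0527 to 0.0588).

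*Hes6*, which antagonises HES1, did not pass. It had 20.2, 25.5 and 18.4 CPM at low against 27.0, 28.5 and 31.8 CPM at high glucose, with no overlap (log2FC = 0.45, 95% interval 0.10 to 0.80 before adjustment, edgeR adjusted p = 0.0616; adjusted p = 0.0251 without low-glucose replicate 2). The *Hes6* to *Hes1* ratio of counts was 1.41, 2.40 and 1.00 in low and 3.88, 4.91 and 3.30 in high glucose, 2.51 times as high in the mean. Its separation was likewise fixed by that of the genes themselves, which lay apart in opposite directions. *Hes7*, the oscillator of somite segmentation, had 2.23 to 4.14 CPM at low against 2.79 to 4.49 CPM at high glucose, and *Heyl* was at the count minimum (5 to 19 counts in low and 6 to 17 in high glucose). Of 29 Notch pathway genes tested, 4 were higher, 4 lower and 21 not called (median log2FC 0.003). The shares over all genes tested were 12.0% higher and 10.1% lower. Higher with the smallest adjusted p were *Aph1a*, a gamma-secretase subunit (log2FC = 0.94, edgeR adjusted p = 4.14e-05), the Notch inhibitor *Numb* (log2FC = 1.07, adjusted p = 0.00227) and the glycosyltransferase *Rfng* (log2FC = 0.89, adjusted p = 0.00297). Among the lower genes were the corepressor *Tle3* (log2FC = -0.60, edgeR adjusted p = 6.71e-04) and the gamma-secretase subunit *Psenen* (log2FC = -0.36, adjusted p = 0.00917). Subunits of gamma-secretase, the protease that releases the active part of Notch, differed in direction. Marker sums of acinar, endothelial, stellate and mesenchymal, leukocyte, Schwann and neuronal, alpha and delta cells were all lower in high glucose. *Hes1* and *Hey1* were lower as well, and the part of any of these cell types in their falls was not tested.

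*Bhlhe40* and *Bhlhe41*, repressors that feed back on the clock, did not pass (0 of 2 with edgeR or DESeq2, 1 at an unadjusted p under 0.05 with either). Of all genes tested, edgeR called 22.1%. *Bhlhe40* had 45.5, 42.2 and 39.7 CPM at low against 47.1, 37.6 and 39.7 CPM at high glucose, with a log2FC of -0.03 and an interval from -0.31 to 0.24. *Bhlhe41* had 29.2, 33.5 and 38.7 CPM at low against 16.3, 34.1 and 22.7 CPM at high glucose, where replicate 2 of high glucose stood with the low-glucose libraries (log2FC = -0.47, edgeR adjusted p = 0.0991). *Bhlhe41* passed as lower in 4 of the 17 refits (adjusted p 0.00840 to 0.0469), namely with no count filter, without low replicate 1, without high replicate 2 and with the replicate block in edgeR (adjusted p = 0.0418). It did not pass with the replicate block in DESeq2 (adjusted p = 0.0604). Their ratio overlapped between conditions.

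Of the leucine zipper members outside the MAX network, *Tfap4* fell the most. *Tfap4* (ENSMUSG00000005718, chromosome 16) encodes AP-4, a known target of MYC that acts on cell cycle genes. It had 10.7, 10.9 and 9.43 CPM at low against 4.35, 2.70 and 2.47 CPM at high glucose, from 101, 127 and 116 counts in low and 70, 45 and 50 counts in high glucose. The conditions were far apart relative to their spread (3.27-fold lower in high glucose, log2FC = -1.71, SE 0.32, edgeR adjusted p = 3.71e-04), and the call held in all 17 refits and at the 1.5-fold threshold. *Mitf* (ENSMUSG00000035158, chromosome 6), the factor of pigment cells and a relative of TFEB, had 6.90, 4.89 and 2.76 CPM at low against 8.13, 8.45 and 10.6 CPM at high glucose. No library overlapped, but the low-glucose values spread by more than those of high glucose (log2FC = 0.92, SE 0.33, edgeR adjusted p = 0.0491). Its call was lost in 13 of the 17 refits, among them DESeq2, the replicate block (adjusted p = 0.0542 in edgeR and 0.0924 in DESeq2) and every left-out library but low-glucose replicate 1 (adjusted p 0.050 to 0.199 over the 13). The USF factors, broadly present activators at CACGTG, did not pass: *Usf1* had 11.9 to 15.2 CPM at low against 10.8 to 17.7 CPM at high glucose, and *Usf2* and *Usf3* had log2FC of 0.45 and 0.37 (edgeR adjusted p = 0.513 and 0.650).

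In the MAX network 0 of 5 tested genes were called with edgeR or DESeq2, where edgeR called 22.1% of all genes tested. With edgeR, 1 of the 5 had an unadjusted p under 0.05. *Mxd1*, a repressor that takes MAX from MYC, had 60.2, 66.0 and 67.9 CPM at low against 71.5, 80.6 and 74 CPM at high glucose, with no overlap (log2FC = 0.22, edgeR adjusted p = 0.134). *Max* itself had 35.2, 23.5 and 20.2 CPM at low against 16.9, 18.3 and 23.7 CPM at high glucose (log2FC = -0.42, 95% interval -0.83 to 0.003, edgeR adjusted p = 0.155). Low-glucose replicate 1 was the library set apart for *Max*. *Mxd4* stayed at 24.9 to 31.9 CPM at low against 27.8 to 31.9 CPM at high glucose, with an interval for its log2FC from -0.32 to 0.32. The repressors *Mnt* and *Mxi1* had log2FC of -0.28 and 0.22 (edgeR adjusted p = 0.439 and 0.681). *Mga*, a further partner of MAX that the table labels T-box, was at 95 ± 4.35 CPM at low against 106 ± 10.5 CPM at high glucose (SD, n = 3 each; log2FC = 0.16, edgeR adjusted p = 0.231).

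**Figure D3:**
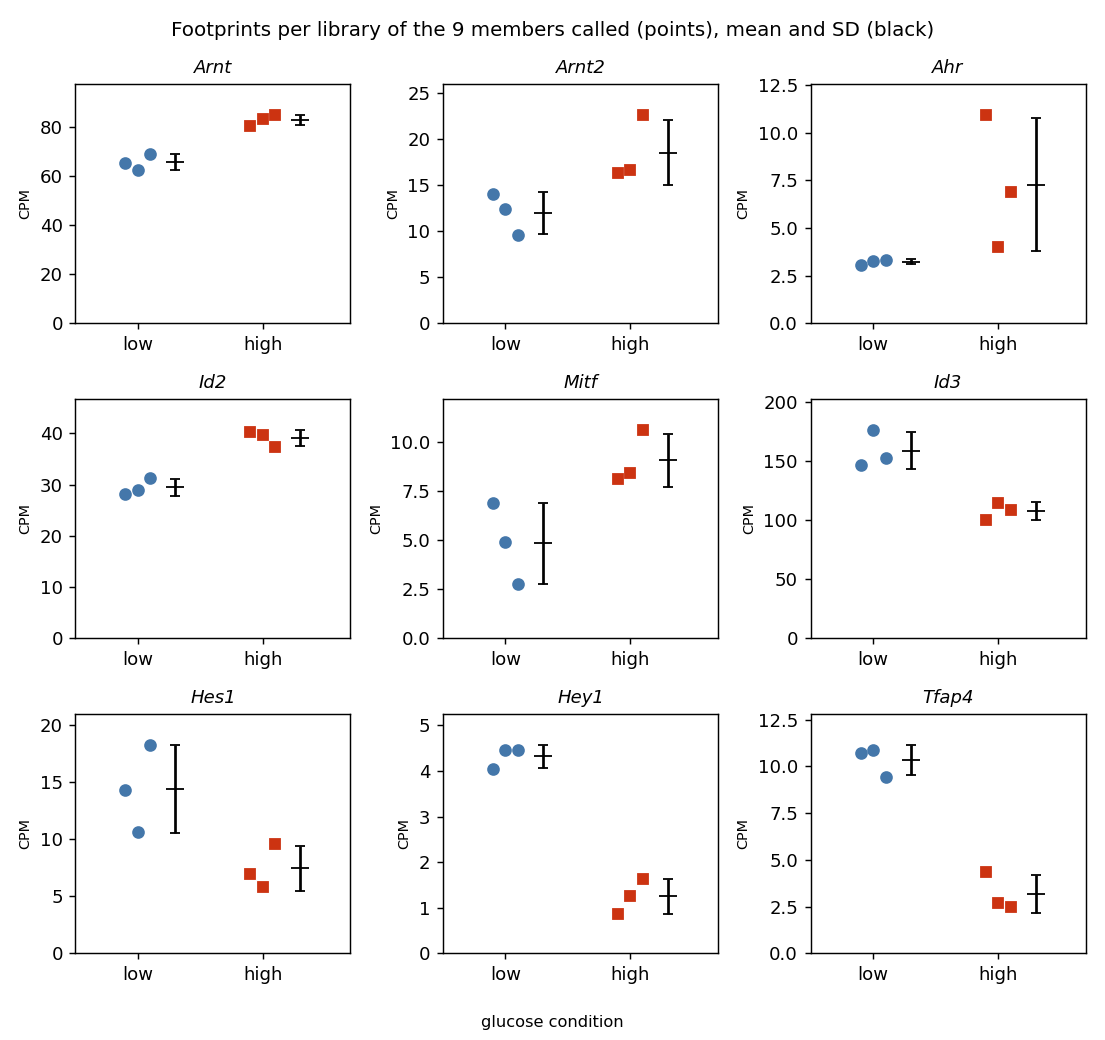
Footprints in CPM (y axis, from 0) of the 9 genes called, 1 point per library, in low (blue circles) and high glucose (red squares), with mean and SD in black, n = 3 each. In each of the 9 panels the conditions do not overlap, as in 37.3% of all genes tested, and the genes were picked by adjusted p on these same values. The spread is widest relative to the mean for *Ahr* in high and *Mitf* in low glucose.

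Factors that direct cell fate were sparse in these adult islets. Of all genes tested, 22.1% were called. Of 25 endocrine, exocrine and neural factors 4 were tested and 0 called (DESeq2 also 0, with 1 at an unadjusted p under 0.05 with either). *Neurog3*, which starts the endocrine lineage in the embryo, had 3.29, 4.29 and 1.63 CPM at low against 3.10, 2.64 and 2.52 CPM at high glucose (log2FC = -0.15, 95% interval -1.20 to 0.89). *Bhlha15* (MIST1), which acinar and other secretory cells use, had 3.93, 5.06 and 5.20 CPM at low against 9.13, 6.77 and 6.87 CPM at high glucose, without overlap (log2FC = 0.68, edgeR adjusted p = 0.133). Its 3 high-glucose values lay above the low-glucose ones, while the acinar marker sum lay below. *Ptf1a*, the other acinar bHLH factor, had 0 counts in all 6 libraries, which allows up to 0.0345 CPM over them by counting error alone. *Atoh8* ran from 5.32 to 5.61 CPM in low and from 1.53 to 4.85 CPM in high glucose (edgeR adjusted p = 0.311). Of 20 muscle, mesenchymal, blood and endothelial factors 2 were tested and 0 called with edgeR or DESeq2 or at an unadjusted p under 0.05. These were *Tcf24* and *Mesp2*. *Mesp2*, a somite factor, had 0 counts in replicate 2 of each condition and 3 to 34 in the other 4 libraries. *Tal1*, a factor of blood and endothelium, had 9 counts in all.

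Among the 55 members not tested, 22 had 0 counts in every library and 33 had at least 1. The genes just inside the minimum were *Heyl* (12, 5 and 19 counts in low, 6, 8 and 17 in high glucose) and *Mesp2*. Those just outside were *Mxd3* (0, 9 and 9 in low, 9, 9 and 28 in high glucose), *Nhlh2* and *Hand2* (39 counts each in all). *Npas2*, *Arntl2*, *Mesp2* and *Heyl* passed with fewer than 3 low-glucose libraries at 10 counts, and the other 34 had at least 10 counts in all 6 libraries. All members together took 0.0697% to 0.0789% of the counts of a library. *Mycs*, a MYC gene that the choice by name did not set aside, had 1 count.

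Levels between genes were compared per kilobase of the gene length listed in the table. That length is not a coding length, since only 34.7% of protein-coding genes had one that is a multiple of 3. The order given here depends on this length. Before the division *Mxd1* had a mean of 70.0 CPM over all 6 libraries, *Id2* 34.3 CPM and *Id1* 17.8 CPM. *Id3* led with 88.4 ± 8.74 CPM per kilobase in low and 60.0 ± 4.14 in high glucose (SD, n = 3 each). Next came *Id1*, *Id2* and *Hes6*, at 15.3, 14.1 and 13.9 CPM per kilobase over all 6 libraries, whose ranges over libraries overlapped (10.2 to 20.7 in all). *Mxd1*, *Arnt* and *Bhlhe40* followed with 9.90, 9.29 and 8.92, again with overlapping ranges. The called genes *Tfap4*, *Arnt2*, *Mitf*, *Hey1* and *Ahr* lay lower, at 2.66, 1.99, 1.12, 0.853 and 0.851 CPM per kilobase. The 17 members with a mean of at least 10 CPM had a median SE of 0.17 for the log2FC, against 0.46 for the 21 below. Of the 17, 5 were called, and of the 21, 4, where 22.1% of all genes tested were called.

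**Figure D4:**
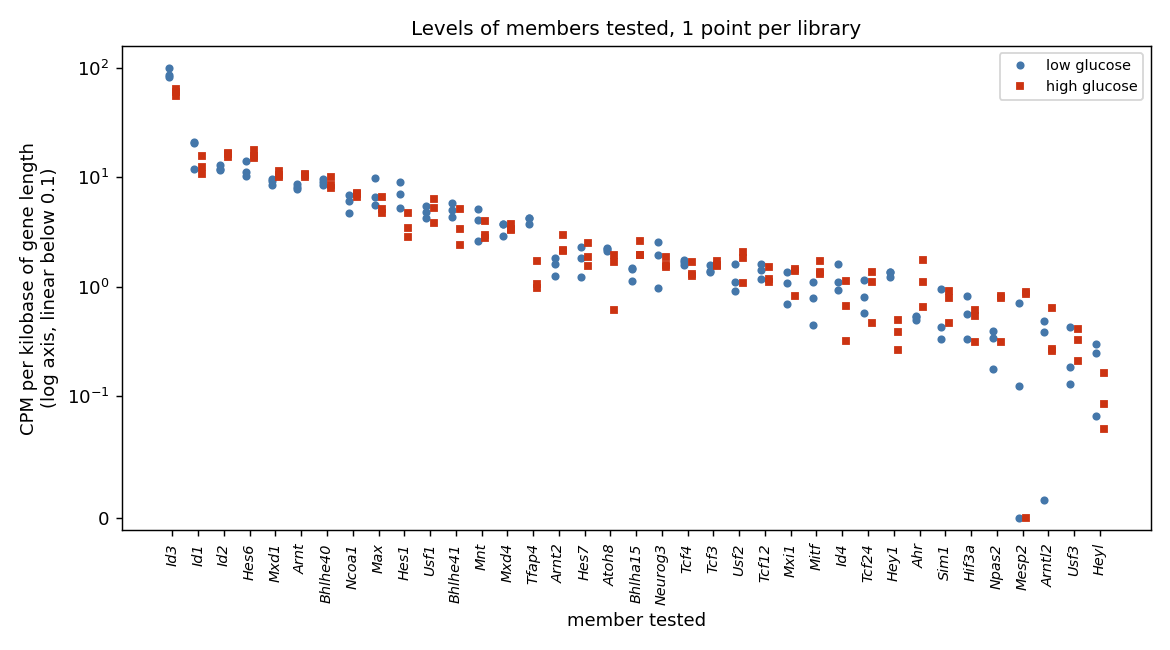
Level of 37 of the 38 genes tested in CPM per kilobase of gene length (y axis, log scale, linear below 0.1), ordered by the mean over libraries, with 1 point per library in low (blue circles) and high glucose (red squares). *Id3* stands above all others in every library, and the points spread more as the level falls.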

How the data were processed

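Footprint counts of 6 Ribo-seq libraries were used. Per the study's methods, the authors removed rRNA and tRNA reads with Bowtie, aligned what remained by TopHat2 2.0.12 and made gene counts by HTSeq 0.9.1; the submitters' notes name the build mm10. The deposited counts are whole numbers with no scaling, and whether strand was used is not given in the sources used here, so reads of genes that overlap cannot be told apart.

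Genes with at least 10 counts in 3 or more libraries (13159 of 56747) were scaled by TMM and compared by the quasi-likelihood F test of edgeR 4.0.16 (R 4.3.3), without a replicate term. The study's methods name DESeq2 and state no such term. They divide the islets of each mouse between conditions, in 3 independent experiments, so pools of low and high glucose share mice. The reported fit leaves this sharing out. Nothing says that equal replicate numbers mark the same mice, and the numbers were not taken as pairs in that fit. The replicate block, which does take them as pairs, called 2 members higher in edgeR and 1 in DESeq2. The pipeline was tested on simulated data. 95% intervals use the fitted SE and are not adjusted. Gene length is the column of the table, whose derivation is not given in the sources used here; no protein sequences were at hand for coding lengths. The p-values measure the spread between 3 pooled replicates per condition, and the limit given for a count of 0 (3 counts) covers counting error.

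The members, roles, lists and markers were chosen with earlier results of these data known. Named are all called members, tested members with a mean of at least 10 CPM, paralogs of called members, reference factors of cell types, and of each pathway list the 3 higher and 3 lower genes with the smallest adjusted p; ratios between members, the genes under other family labels, *Atoh8*, *Tcf24*, *Mesp2*, *Mxi1*, *Nqo1* and members near the count minimum were added after their values were seen. Alternatives were DESeq2 1.42.0, other scaling factors, other filters, a robust dispersion, the replicate block, the thresholds of the methods and each library left out. One member and a few genes of the pathway lists are counted but not reported here by name.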

Additional observations from a re-analysis of the deposited data

How the results depend on the processing

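With 5 higher and 4 lower members in the reported fit, the count of higher members was 2 with upper-quartile factors, 2 with library totals only, 2 with the replicate block in edgeR and 1 with the replicate block in DESeq2. Leaving out 1 library each gave 0 to 4 higher and 2 to 5 lower members. The thresholds of the methods (unadjusted p under 0.05 and a fold change above 1.5) were set on the edgeR values, while the study used DESeq2. With them, 4 members were higher (*Ahr*, *Arnt2*, *Mitf* and *Bhlha15*) and 3 lower (*Hes1*, *Hey1* and *Tfap4*). Thus *Arnt*, *Id2* and *Id3* dropped out and *Bhlha15* came in. There, HIF target genes called were 5 instead of 11, and BMP and ID pathway genes 0 instead of 1. With library totals only, 1 gene of the AHR list was called instead of 0. With each library left out, the calls ran from 4 to 6 for HIF regulators, 9 to 11 for HIF targets, 0 to 1 for the AHR list, 6 to 8 for the Notch list and 1 to 3 for the BMP list.

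Deviations of same-numbered libraries from their condition means had r = 0.020, 0.027 and 0.0044 across the 8701 genes averaging 100 counts or more. Other pairs of a low and a high library ran from -0.041 to 0.021. With means of only 3 libraries, these values cannot show whether the libraries were paired. The sources do not state which libraries pair, and the replicate block is given here as an alternative. Over the members named, 510 of 558 values in the refits, which leave out the methods' thresholds, stayed on their side of the threshold. A call was lost in 42 and gained in 6, and none turned a call around. Most of the 558 belong to genes not called, which had no call to lose. Of 17 refits each, *Mitf* lost its call in 13, *Id2* and *Arnt2* in 8, *Ahr* in 6 and *Arnt* in 3. *Hes1* and *Hey1* lost theirs in 2, and *Id3* and *Tfap4* in 0. The median log2FC of all genes moved by at most 0.046 with another scaling. The sparse members limit the precision, since the SE of a log2FC reached 1.20.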
